A study of Mus musculus with 6 samples.

Results

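Partly methylated CpG islands (CGIs) were taken as the autosomal CGIs with a methylation level of 20 to 80%, and 501 of the 12287 autosomal CGIs tested had such a level. A CGI was tested when at least 5 of its CpGs had at least 5 reads in all 6 libraries. The members were chosen by a pooled level, taken as the methylated reads of these CpGs over all their reads in the 6 libraries. Of the other CGIs tested, 11169 lay under 20% and 617 over 80%. The level of a CGI in 1 library, in contrast, is given as the unweighted mean of the same CpGs, so that 1 deeply read CpG does not set it. Single libraries, and library means, can therefore fall outside 20 to 80%.

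The DNA came from CD8+ T cells, enriched with magnetic beads from lymph nodes of 13-week-old mice on the C57BL/6NCrl background. WT mice carried no transgene, hSTAT5B mice carried a human STAT5B transgene, and hSTAT5B N642H mice carried the same human gene with the N642H mutation, an activating mutation found in T cell neoplasia. Both transgenes were driven by the Vav1 promoter, which is active throughout the hematopoietic system, and each was studied in 1 transgenic line. The hSTAT5B N642H mice were diseased at this age, so that genotype, disease and the makeup of the cells cannot be told apart. There were 2 libraries per genotype, each from 1 mouse, and methylation was measured by RRBS, in which DNA is cut with MspI at CCGG and bisulfite turns unmethylated cytosine into a base that is read as T.

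CpGs in mammalian DNA are mostly methylated, whereas most CGIs, and above all those at active or poised promoters, are kept free of methylation. A CGI of intermediate level is therefore uncommon, and the best known ones are the differentially methylated regions of imprinted genes, where the allele from 1 parent carries the methylation and the other does not. In a bulk library, methylation of 1 allele in every cell and methylation of both alleles in a part of the cells give the same level and cannot be told apart.

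Summed over CpGs, so that a read counts at each CpG it covers, the libraries held 43291086 to 67007186 reads. The median sum per member was 269 to 537, and read numbers of members below are such sums. Reads carry no molecular identifiers, so that errors from read numbers cover counting only. The labelled cell type was checked by the CpGs within 2 kb of the starts of marker genes. The CD8 list, with CpGs at 6 of 7 genes, had mean levels of 46.2 and 34.1% in WT, 31.8 and 31.4% in hSTAT5B, and 29.04 and 26.5% in hSTAT5B N642H. At Cd8a, which encodes a chain of the CD8 coreceptor, WT replicate 1 stood apart at 49.4%, against 17.03% in WT replicate 2, 18.01 and 25.2% in hSTAT5B, and 10.1 and 5.63% in hSTAT5B N642H. At Cd8b1, which encodes the other chain, the levels were 37.8 and 37.8%, 18.8 and 17.5%, and 8.51 and 11.8% in the same order. The other genes of the list did not fall in this order. Over all libraries, Cd3g had 71.9 to 78.7%, Cd5 had 60.8 to 70.8% and Lck had 3.42 to 6.62%. Cd3d, on 2 CpGs, had 46.5% in WT replicate 1 and 0 to 11.8% in the other libraries. The B cell list, with CpGs at 4 of 7 genes, lay between 42.7 and 49.0% in all libraries, and the myeloid list, with CpGs at 5 of 6 genes, lay between 62.8 and 82.9%, lowest in WT replicate 1. Of the myeloid genes, Itgam, on 1 CpG, had 45.5% in WT replicate 1 and 90 to 100% in the other libraries. WT replicate 1 was also lowest at Mpo, with 74.3%, but not at Csf1r, Spi1 and Cebpe. The CD4 list had CpGs at 1 of 3 genes, with 5.55 to 9.43% at Zbtb7b, and the natural killer list at 0 of 3. The part of these differences in the results was not tested, and the median differences, the counts past 5 points and the calls of the read model are given without WT replicate 1 as well.

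Sequences of some members are shown here because the results below turn on them. Each is the + strand of GRCm38, written 5′ to 3′, and capitals mark the CpGs that were measured in all 6 libraries. The member in an intron of Hoxa3, a homeobox gene of body patterning, had the strongest difference by the read model, and the stretch chr6:52175723-52176022 holds 31 of its 48 measured CpGs. The member in an intron of Antxr2, the gene of an anthrax toxin receptor, was also lower in hSTAT5B N642H, and chr5:97935459-97935758 holds all 20 of its measured CpGs. The member in a coding exon of Dtx1, which encodes a Deltex regulator of Notch signalling, was higher, and chr5:120694415-120694714 holds 12 of its 19. The pair from imprinted genes shows how few CpGs such a level can rest on, with 5 in an intron of Gnas at chr2:174297263-174297532 and 9 in an intron of Airn, the antisense RNA at Igf2r, at chr17:12742122-12742421. The last pair, chr12:23426879-23427178 and chr12:22274508-22274807, is from a run of members on chromosome 12 that share sequence, and the stretches are 99.3% identical.
Hoxa3: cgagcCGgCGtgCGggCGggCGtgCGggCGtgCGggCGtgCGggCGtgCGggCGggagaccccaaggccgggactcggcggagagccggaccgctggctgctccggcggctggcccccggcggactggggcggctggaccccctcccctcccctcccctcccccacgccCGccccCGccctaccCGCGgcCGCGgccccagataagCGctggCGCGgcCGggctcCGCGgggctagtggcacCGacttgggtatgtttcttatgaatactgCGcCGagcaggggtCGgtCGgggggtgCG
Antxr2: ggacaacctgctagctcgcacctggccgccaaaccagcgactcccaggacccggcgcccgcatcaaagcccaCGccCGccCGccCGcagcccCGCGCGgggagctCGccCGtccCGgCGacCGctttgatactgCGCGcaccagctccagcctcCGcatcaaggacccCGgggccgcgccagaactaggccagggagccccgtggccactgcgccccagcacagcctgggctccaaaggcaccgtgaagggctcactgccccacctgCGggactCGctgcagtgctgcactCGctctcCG
Dtx1: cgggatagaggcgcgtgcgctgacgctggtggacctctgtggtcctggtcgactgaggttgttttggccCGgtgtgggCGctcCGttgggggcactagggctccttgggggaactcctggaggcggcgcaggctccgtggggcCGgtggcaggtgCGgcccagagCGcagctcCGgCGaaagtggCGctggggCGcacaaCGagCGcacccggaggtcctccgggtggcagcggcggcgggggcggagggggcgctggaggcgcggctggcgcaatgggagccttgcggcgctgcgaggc
Gnas: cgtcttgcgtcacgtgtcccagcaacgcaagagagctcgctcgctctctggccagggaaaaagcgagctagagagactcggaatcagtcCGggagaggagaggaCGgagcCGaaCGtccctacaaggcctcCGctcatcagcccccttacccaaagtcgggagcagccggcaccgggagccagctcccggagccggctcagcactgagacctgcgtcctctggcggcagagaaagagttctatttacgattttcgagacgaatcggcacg
Airn: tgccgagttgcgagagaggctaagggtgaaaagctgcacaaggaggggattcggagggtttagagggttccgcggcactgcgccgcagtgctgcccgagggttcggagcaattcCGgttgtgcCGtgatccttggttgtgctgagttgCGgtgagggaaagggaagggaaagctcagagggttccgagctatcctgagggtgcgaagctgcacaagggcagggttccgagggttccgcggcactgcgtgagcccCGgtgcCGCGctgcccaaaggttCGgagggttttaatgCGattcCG
Chromosome 12, first: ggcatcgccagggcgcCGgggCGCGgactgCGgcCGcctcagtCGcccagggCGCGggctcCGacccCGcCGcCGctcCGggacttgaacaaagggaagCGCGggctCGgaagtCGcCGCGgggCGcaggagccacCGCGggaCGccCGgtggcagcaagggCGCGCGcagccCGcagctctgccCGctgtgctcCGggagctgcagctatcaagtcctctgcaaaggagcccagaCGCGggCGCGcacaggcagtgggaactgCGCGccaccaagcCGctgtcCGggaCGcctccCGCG
Chromosome 12, second: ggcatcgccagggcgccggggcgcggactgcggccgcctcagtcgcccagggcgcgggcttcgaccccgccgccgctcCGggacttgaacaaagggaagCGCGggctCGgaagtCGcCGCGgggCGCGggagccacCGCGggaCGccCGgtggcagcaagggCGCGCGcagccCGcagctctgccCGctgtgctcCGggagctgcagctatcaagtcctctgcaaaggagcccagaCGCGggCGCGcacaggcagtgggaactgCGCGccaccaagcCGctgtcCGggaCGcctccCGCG

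In the Hoxa3 stretch, the median CpG was methylated at 76.5% in WT, 54.3% in hSTAT5B and 32.4% in hSTAT5B N642H, and 31 of 31 CpGs were lower in hSTAT5B N642H than in WT. Over all 48 CpGs of this member, the medians were 68.75, 63.4 and 32.9%, so that hSTAT5B lay nearer to WT. The CpGs of the stretch where hSTAT5B lay furthest below WT had 8 and 9 reads in the hSTAT5B libraries. In the Antxr2 stretch, the medians were 74.1, 63.5 and 49.3% in the same order, with 17 of 20 CpGs lower. In the Dtx1 stretch, they were 26.7, 36.5 and 59.98%, with 12 of 12 higher. Neighboring CpGs can share reads, so that counts of CpGs, here and below, are not counts of separate observations. The Gnas and Airn stretches had no such order, with medians of 64.3, 25.9 and 59.5% and of 52.6, 66.7 and 49.0%. The near-identical stretches of chromosome 12 had medians of 39.2, 41.4 and 40% in the first and 50.6, 49.3 and 38.7% in the second.

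Members lay away from transcription starts more often than other CGIs did. Of the 501 members, 171 (34.1%) overlapped an annotated start, 159 (31.7%) lay in exons, 65 (12.97%) in introns, and 106 (21.2%) outside genes. Among all CGIs tested, 77.9% overlapped a start, 11.7% lay in exons, 3.89% in introns and 6.52% outside genes. The CGIs over 80% had an even smaller share at starts, 11.5%, and a larger one in exons, 60.6%. Seen from the other side, 1.79% of the CGIs at starts were partly methylated, compared with 11.1% of those in exons, 13.6% of those in introns and 13.2% of those outside genes.

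**Figure D1:**
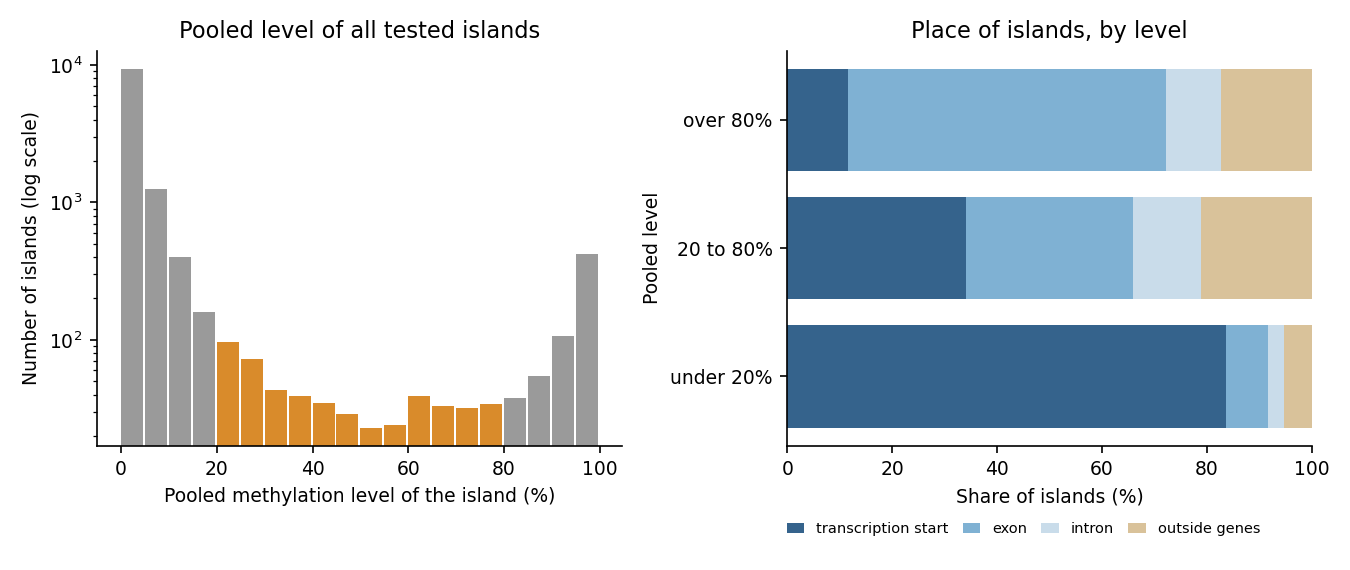
Number of CGIs tested by pooled methylation level in steps of 5 percentage points (log axis), and share of CGIs by place for those under 20%, at 20 to 80% and over 80%. Most CGIs lie under 5%, with 9367 of 12287 there, and the members thin out from 97 at 20 to 25% to 23 at 50 to 55%.

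The levels of the members were not spread evenly over the range. The interval from 20 to 30% held 170 of them, that from 50 to 60% held 47, and that from 70 to 80% held 66. The median pooled level was 29.8% for members at starts, 46.0% in exons, 41.5% in introns and 43.5% outside genes. Members were shorter than the CGIs tested, with median lengths of 485 and 631 bp, and had fewer measured CpGs, with medians of 14 and 19. Their GC content, with medians of 66.5 and 66.7%, differed little, as did the observed/expected CpG ratio, with 0.892 and 0.930. The CpGs within 2 kb of a member, measured at 292 members, had a median level of 68.1%, against 24.8% around all CGIs tested. The rule did not use these flanking CpGs, and they lay nearer to the methylated state than the members did. Members in or at genes belonged to 373 distinct genes, of which C230088H06Rik held 5 members, and Cdh22, which encodes a cadherin, and Gnas held 4 each.

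The CGIs next to the limits of the rule show that the limits have no natural gap. Just inside 20% were the members at the start of Gm9780 and 3038 bp from Smug1, both with a pooled level of 20.1%, and just under it were CGIs in an exon of Sema5b, at 19.9%, and at the start of Slc45a1, at 19.96%. Just inside 80% were the members in an intron of C230088H06Rik and an exon of Rasip1, both at 79.9%, and just over it were CGIs in exons of Syk and Bcl6b, both at 80.3%.

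An intermediate mean arose in different ways within a CGI. Of the 9771 measured CpGs of the members, 63.7% had a level of 20 to 80% themselves, 26.6% lay under 20% and 9.76% over 80%. The median SD between the CpGs of a member was 15.7 percentage points, compared with 2.83 over all CGIs tested. In 225 members (44.9%), called even, at least 75% of the CpGs were themselves at 20 to 80%. In 11 members, called split, at least 25% of the CpGs lay under 20% and at least 25% over 80%. The split members were at Lrsam1, Snai1, Slc25a51, Eva1b, Yif1b, Fut4, Npm1, Gfm2, Zc3h3, Gm26848 and Dazl.

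The median library differences of the split members were 2.26, 2.00 and 2.14 points in WT, hSTAT5B and hSTAT5B N642H, with the widest at 8.57, 16.99 and 8.20 points. At the start of Npm1, which encodes nucleophosmin, CpGs ranged from 0 to 98.8%, and the library levels were 36.0 and 35.8% in WT, 37.5 and 37.5% in hSTAT5B, and 36.2 and 39.5% in hSTAT5B N642H. The start of Dazl, a germ cell gene for an RNA-binding protein, had 40.9 and 39.7%, 41.5 and 40.2%, and 40.9 and 38.8%. The pooled level of Dazl was 71.8%, above every library level, since the methylated CpGs held more reads. The start of Snai1, which encodes the transcription factor Snail, had 26.2 and 31.1%, 23.9 and 27.7%, and 28.7 and 29.2%.

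Libraries of 1 genotype differed more at members than at other CGIs. The median absolute difference between the libraries of a genotype was 5.18 percentage points in WT, 4.98 in hSTAT5B and 4.25 in hSTAT5B N642H. Counting error alone would have given 2.96, 2.92 and 2.44 if each CpG were read independently. Neighboring CpGs can share reads, which makes these values too low, so that the excess over them does not measure the spread between mice. In CGIs over 80% the same medians were 1.55, 1.61 and 1.499, and in those under 20% they were 0.996, 1.04 and 0.913. A binomial share varies most near the middle of its range, and the members were chosen for lying there. In WT, 259 members (51.7%) differed by at least 5 points between the mice, compared with 249 in hSTAT5B and 222 in hSTAT5B N642H. A difference of at least 20 points was found at 29, 30 and 14 members.

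The spread depended on the kind of member. In even members the median library differences were 7.33, 7.005 and 5.68 points in WT, hSTAT5B and hSTAT5B N642H. The 151 members with fewer than 10 CpGs had medians of 7.18, 7.05 and 6.52 points, and the 168 with at least 20 had medians of 4.49, 3.78 and 3.13. Members with few CpGs thus had the wider differences between libraries, and the part of counting error in this was not tested.

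The widest differences between libraries of a genotype were at members with few CpGs. At Pglyrp3, which encodes a peptidoglycan recognition protein, the hSTAT5B libraries had 86.9 and 28.1%, while WT had 81.0 and 66.8% and hSTAT5B N642H had 70.6 and 77.0%, on 6 CpGs and 41 to 69 reads. At Cyp4f39, a cytochrome P450 gene, the hSTAT5B libraries had 10 and 58.1%. At the start of Plcb2, which encodes a phospholipase C, the WT libraries had 78.6 and 31.7%. The hSTAT5B N642H libraries differed most at Kcnq1ot1, the long noncoding RNA of an imprinted cluster, with 80.9 and 36.1%. The member 3988 bp from Krtap31-2 had 66.4 and 24.8% in WT. Across the 501 members, which are not independent replicates, Pearson's r was 0.881 between the WT libraries, 0.899 between the hSTAT5B libraries and 0.915 between the hSTAT5B N642H libraries, and it was 0.830 to 0.897 between libraries of different genotypes.

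**Figure D2:**
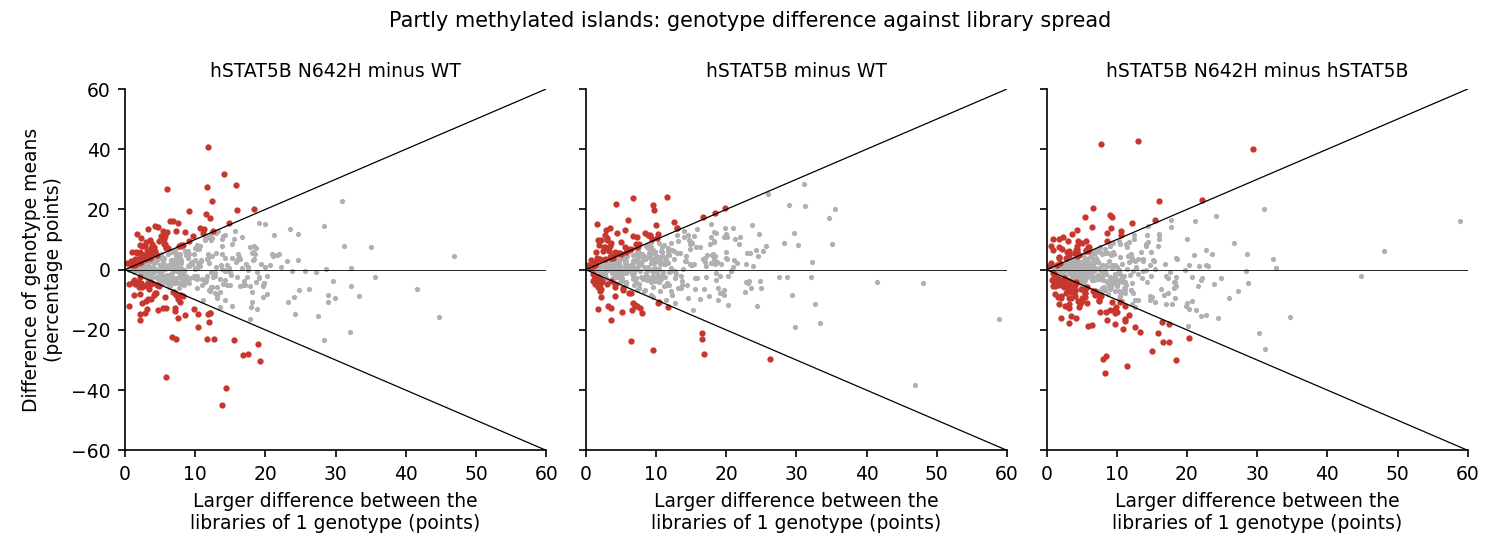
Difference of genotype means at each member (percentage points) against the larger difference between the libraries of a genotype compared (percentage points), in 3 panels with 1 point per member and lines where both are equal. Red points lie outside the lines, as 153 members did for hSTAT5B N642H against WT, which differed by more between the genotypes than between libraries.

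To ask whether mutant hSTAT5B goes with other levels, hSTAT5B N642H was compared with WT. Means were 5 percentage points or more apart at 221 members, with 116 higher and 105 lower in the mutant. This is 44.1% of the members, and 4.79% of all CGIs tested were as far apart (3.12% higher, 1.67% lower), but a threshold in points is easier to pass at intermediate levels. The libraries of the genotypes did not overlap at 210 members (41.9%), with 120 higher and 90 lower, compared with 36.2% of all CGIs tested (21.7% higher, 14.4% lower). The median difference over the members was 0.396 points, against 0.156 over all CGIs tested, and the 5th and 95th percentiles were -14.6 and 12.98. The mean over all members was 42.1 and 44.0% in the WT libraries and 42.6 and 43.4% in the hSTAT5B N642H libraries. Higher and lower members were thus nearly balanced, and the sign of the median was not stable, at -0.328 without WT replicate 1, at -0.0574 without hSTAT5B N642H replicate 2, and at -0.098 without CGIs that hold repeated sequence. The number past 5 points was 271 without WT replicate 1.

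No member passed limma at an adjusted p under 0.05, with a smallest adjusted p of 0.867 among the members, and 0% of all CGIs tested passed. Unadjusted, 21 members (4.19%) had a p under 0.05 by limma, against 5.53% of all CGIs tested. By a quasi-binomial model of the reads, 133 (26.5%) had one, against 7.77% of all CGIs tested and 6.71% of those under 20%. Its dispersions were moderated over all CGIs, of which 11169 lay under 20%, where libraries of a genotype differed less than at members. Its p-values for members, here and below, can therefore be too small. After adjustment, the quasi-binomial model called 12 members, with 5 higher and 7 lower in the mutant, against 0.171% of all CGIs tested. At 12 of these 12, the libraries of the genotypes did not overlap. The rule itself favored some differences, since 35 members would have lain under 20% (22 members) or over 80% (13 members) by the WT and hSTAT5B libraries alone, and these had to differ in hSTAT5B N642H. They include Runx1, Camk2b, Gm39323 and a member of C230088H06Rik, which are 4 of the 12 calls, and, among the named members without a call, Gm11536, Gm4793, Phospho1, Acot4 and the member near Gm21119. Hoxa3, Casz1, Antxr2, Arhgap9 and Dtx1 did not depend on these libraries for their place in the range. The count of this model fell to 7 without WT replicate 1, of which 5 were shared, to 2 without WT replicate 2, to 1 without either hSTAT5B library, and to 0 without either hSTAT5B N642H library. Fisher's exact test on pooled reads, with methylated reads taken from the mean level of the CpGs, takes the spread between mice as none. It called 178 members, against 10.3% of all CGIs tested. With 2 mice against 2, an exact permutation test cannot give a p below 0.333.

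The members with the lowest levels in hSTAT5B N642H relative to WT included genes of transcription factors. Runx1 encodes a transcription factor of blood stem cells and T cells, and its member lay in an exon with untranslated sequence, 63 bp from an annotated start, at chr16:92695558-92695816. Its levels were 77.2 and 91.6% in WT, 83.5 and 75.2% in hSTAT5B, and 46.0 and 44.3% in hSTAT5B N642H. Both hSTAT5B N642H libraries lay below the other 4, and 12 of 12 CpGs were lower than in WT. The pooled level of the other 4 libraries was 84.2%, so that the hSTAT5B N642H libraries brought this CGI into the range of the rule. Means (± SD, n = 2) were 84.4% ± 10.2 for WT and 45.2% ± 1.21 for hSTAT5B N642H, a difference of -39.2 points. The log2 ratio of methylated to unmethylated reads differed by -2.85 ± 0.65 (SE), with an adjusted p of 0.867 by limma and of 0.00263 by the quasi-binomial model. The CpGs around this member had a level of 80.2%.

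The Hoxa3 member, at chr6:52175602-52176139, had levels of 65.2 and 68.0% in WT, 55.5 and 63.9% in hSTAT5B, and 28.1 and 34.0% in hSTAT5B N642H. It had the most reads of the 10 with the lowest levels relative to WT, with 851 to 1912 per library summed over 48 CpGs. Means (± SD, n = 2) were 66.6% ± 2.01 for WT and 31.0% ± 4.15 for hSTAT5B N642H, and 48 of 48 CpGs were lower. The difference was -35.6 points, or -2.15 ± 0.46 (SE) as a log2 ratio, with an adjusted p of 0.867 by limma and of 9.81e-06 by the quasi-binomial model. The lower level was thus seen along the whole member, including the stretch printed above.

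Other members lower in hSTAT5B N642H lay in exons and introns. At Casz1, which encodes a zinc finger transcription factor, an exon member at chr4:148951661-148952889 had 63.2 and 82.4% in WT, 68.9 and 80.4% in hSTAT5B, and 38.7 and 46.4% in hSTAT5B N642H, with an adjusted p of 0.0178 by the quasi-binomial model. At Arhgap9, an exon member had 66.3 and 85.2%, 71.7 and 67.9%, and 48.1 and 54.1% in the same order, with an adjusted p of 0.0155 by that model. At Antxr2, the levels were 76.4 and 69.2%, 57.8 and 63.6%, and 47.8 and 51.5%, with an adjusted p of 0.00863 by that model. In each of these members both hSTAT5B N642H libraries lay below the other 4. The largest difference, -45.0 points, was at the start of Gm11536, a predicted gene 993 bp from a start of the homeobox gene Hoxb3. It rested on 6 CpGs and 50 to 121 reads, with 100 and 86.2% in WT, 63.9 and 80.5% in hSTAT5B, and 42.6 and 53.5% in hSTAT5B N642H, and an adjusted p of 0.0563 by the quasi-binomial model.

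The other 4 of the 10 members with the lowest levels relative to WT were not called by either model. At the start of Esr1, the estrogen receptor gene, the levels were 36.0 and 41.0% in WT, 14.2 and 38.6% in hSTAT5B, and 19.09 and 1.63% in hSTAT5B N642H. At Ly6k, a gene of the Ly6 family, the hSTAT5B N642H libraries had 49.4 and 77.9%, so that the upper one came within 1 point of the lower WT library, at 78.8%. At the start of Gm4793 the difference was -23.3 points, and at the member 56973 bp from Gm21119 it was -28.2 points, with 88.5% of the 50-base stretches of the latter repeated elsewhere in the genome.

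Among the 10 members highest above WT in hSTAT5B N642H, Camk2b and Dtx1 had the most CpGs. The member in an intron of Camk2b, which encodes a calcium-dependent kinase subunit, at chr11:6007218-6007473, had 13.7 and 1.94% in WT, 8.20 and 5.71% in hSTAT5B, and 52.6 and 44.8% in hSTAT5B N642H. Its pooled level of 23.0% passed the rule only through the hSTAT5B N642H libraries, since it was 9.55% in the other 4. All 23 CpGs were higher, and means (± SD, n = 2) were 7.84% ± 8.35 for WT and 48.7% ± 5.54 for hSTAT5B N642H. The difference of 40.9 points, or 4.02 ± 0.91 (SE) as a log2 ratio, had an adjusted p of 0.867 by limma and of 0.00195 by the quasi-binomial model. Of the 50-base stretches of this member, 96.1% occur elsewhere in the genome too, so that its reads may come from more than 1 place. At Dtx1, the levels were 41.0 and 34.9% in WT, 51.1 and 42.0% in hSTAT5B, and 67.2 and 62.4% in hSTAT5B N642H. All 19 CpGs were higher, and the difference was 26.8 points, or 1.58 ± 0.46 (SE) as a log2 ratio, with an adjusted p of 0.867 by limma and of 0.00863 by the quasi-binomial model.

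**Figure D3:**
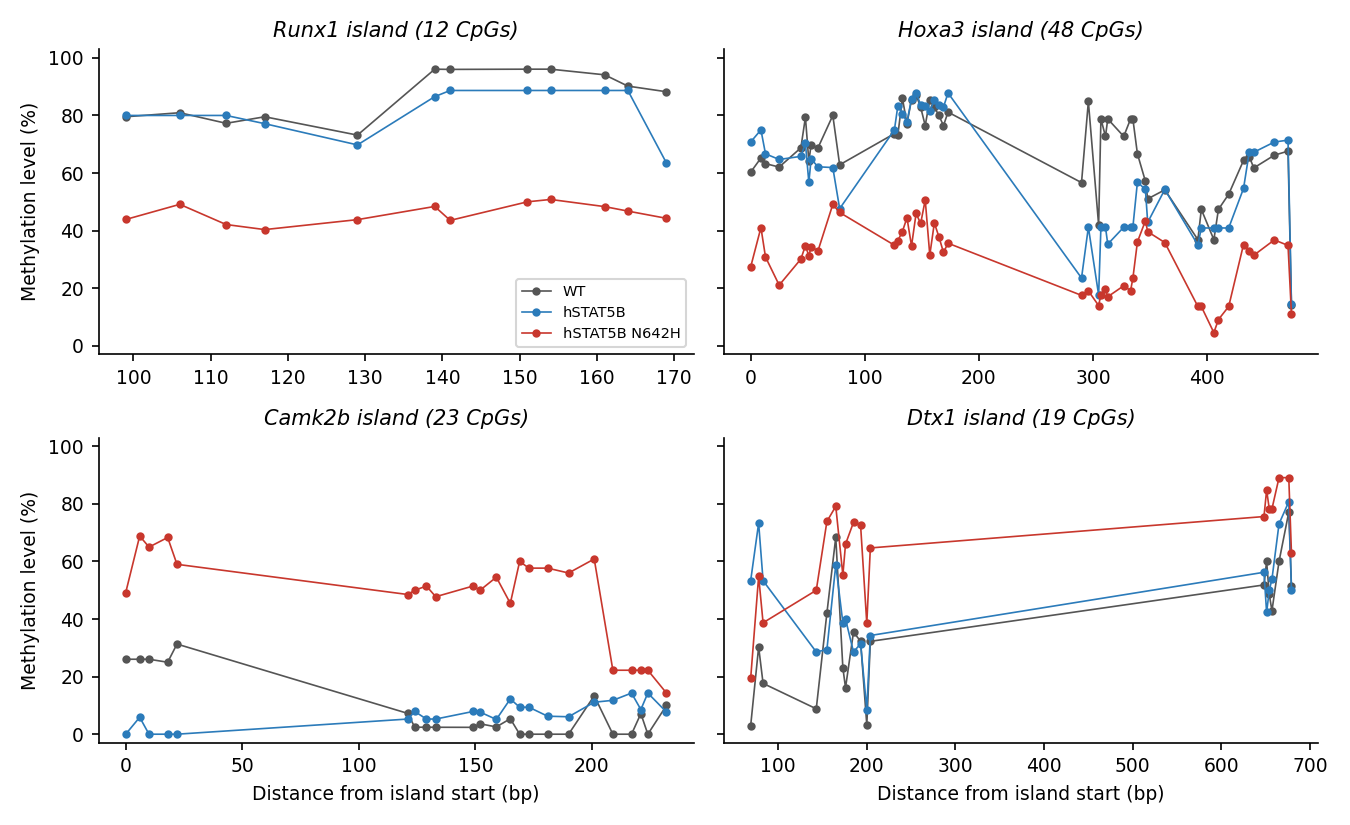
Methylation of each measured CpG (percent, from the reads of both libraries of a genotype) at Runx1, Hoxa3, Camk2b and Dtx1, by distance from the start of the CGI in bp. The hSTAT5B N642H line lies below both other genotypes at 12 of 12 CpGs of Runx1 and 48 of 48 of Hoxa3, and above both at 23 of 23 of Camk2b and 16 of 19 of Dtx1. The members shown are among those with the largest differences, and Runx1 and Camk2b entered the range only through hSTAT5B N642H. Neighboring CpGs can share reads, so that they are not separate observations.

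The other members with the highest levels relative to WT were not called by either model. At Ccdc124, the hSTAT5B N642H libraries had 53.9 and 56.0%, while WT had 30.3 and 16.2% and hSTAT5B had 29.4 and 0%, on 5 CpGs and 25 to 193 reads. The start of Phospho1, which encodes a phosphatase of bone mineralization, had 1.65 and 17.5%, 22.03 and 24.4%, and 44.7 and 30.3% in WT, hSTAT5B and hSTAT5B N642H. At Relb, which encodes an NF-κB subunit, the levels were 42.2 and 60.6%, 70.1 and 70.7%, and 73.7 and 69.5%. Here both transgenic genotypes lay above both WT libraries. The differences were 27.3 points at Sh3pxd2a, which encodes a podosome scaffold, 22.8 at the start of Acot4, a thioesterase gene, 19.7 at the start of Sema4b, a semaphorin gene, 19.3 at Lefty2, which encodes an inhibitor of Nodal signalling, and 18.5 at the member 30373 bp from Ahdc1. Repeated 50-base stretches made up 55.3% of those of Acot4, 60.9% of Lefty2 and 100% of the Ahdc1 member.

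The quasi-binomial model also called members with smaller differences and more reads. The start of Cttn, which encodes the actin-binding protein cortactin, had 51.0 and 47.5% in WT, 53.2 and 59.2% in hSTAT5B, and 65.7 and 61.5% in hSTAT5B N642H, with an adjusted p of 0.0155. At Btnl9, a butyrophilin-like gene, they were 43.1 and 50.6%, 48.1 and 38.2%, and 30.4 and 31.3%, with an adjusted p of 0.0452. At Gm39323, the difference was -9.82 points, with an adjusted p of 0.0396. At C230088H06Rik, a pair of members on chromosome 4 were higher by 10.4 and 10.03 points, with adjusted p-values of 0.00863 and 0.0489. At the first of them the WT libraries had 14.7 and 14.6%, while the other 4 had 23.3 to 26.2%.

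**Figure D4:**
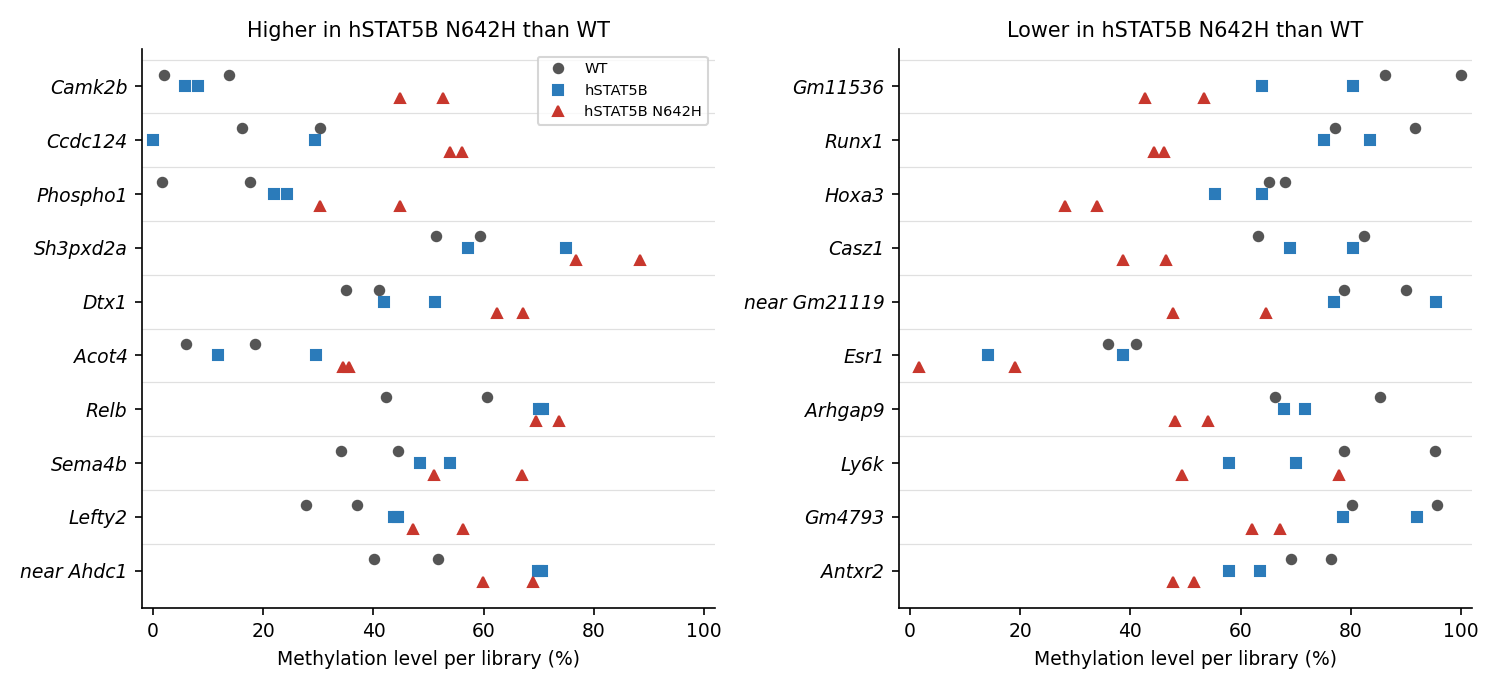
Methylation level of the members with the largest differences between hSTAT5B N642H and WT, by library (percent), with 1 point per library and colors and shapes for the genotypes. At Hoxa3, Runx1, Casz1 and Arhgap9 both hSTAT5B N642H points lie under the other 4, and at Camk2b and Dtx1 they lie above them.

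The direction differed by place as a description of the counts. Among members in exons, 35 were at least 5 points higher in hSTAT5B N642H than in WT and 55 were lower. At starts, 39 were higher and 22 lower, in introns 19 were higher and 14 lower, and outside genes 23 were higher and 14 lower. Without WT replicate 1, the counts were 34 and 68 in exons, 42 and 43 at starts, 21 and 14 in introns, and 25 and 24 outside genes. Both hSTAT5B N642H libraries lay above all 4 others at 53 members (10.6%, against 9.27% of all CGIs tested) and below all 4 at 64 members (12.8%, against 5.55%). In the CGIs over 80%, these shares were 3.57% above and 14.6% below. The genotype difference was larger than both differences between libraries of a genotype at 153 members (30.5%, against 23.5% of all CGIs tested). These counts include the 35 members that lay in the range only through the hSTAT5B N642H libraries, so that the rule itself adds to them.

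The comparison of hSTAT5B with WT asked what the unmutated human transgene does, and it shares its WT libraries with the comparison above. Here 210 members were 5 points or more apart, with 137 higher and 73 lower in hSTAT5B, as were 4.09% of all CGIs tested (2.46% higher, 1.63% lower). The libraries did not overlap at 188 members (37.5%), with 124 higher and 64 lower, against 33.2% of all CGIs tested (17.9% higher, 15.3% lower). The median difference was 1.59 points, against 0.0664 over all CGIs tested, and it was 0.772 without WT replicate 1. Neither limma nor the quasi-binomial model called a member, and 0% of all CGIs tested passed either, with a smallest adjusted p of 0.785 by limma. Unadjusted, 14 members had a p under 0.05 by limma, against 6.14% of all CGIs tested, and 90 by the quasi-binomial model, against 5.79%, and Fisher's exact test on pooled reads called 125, against 6.59%. The quasi-binomial count was 7 without hSTAT5B replicate 2 and 9 with at least 10 reads per CpG.

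The 5 members lower in hSTAT5B by the most included Gnas and Peg3, which are imprinted. Over the 18 imprinted members, the median difference of hSTAT5B from WT was 1.26 points. Libraries did not overlap at 3 of them with higher and 4 with lower levels (17.9% and 15.3% of all CGIs tested). The start of Plcb2 had 78.6 and 31.7% in WT and 10.3 and 23.3% in hSTAT5B, while hSTAT5B N642H had 59.7 and 59.4%, on 6 CpGs and 30 to 101 reads. The Gnas intron printed above, within the gene of a G protein subunit, had 49.0 and 75.2% in WT, 36.8 and 28.3% in hSTAT5B, and 66.8 and 44.6% in hSTAT5B N642H. At Peg3, a paternally expressed zinc finger gene, the levels were 72.7 and 55.8%, 28.4 and 44.4%, and 54.5 and 63.96%. In these members hSTAT5B N642H lay near WT, and hSTAT5B stood below. The Gnas and Peg3 members rested on 5 CpGs each, with 63 to 136 and 84 to 323 reads. At Iqsec1, the gene of an Arf exchange factor, the difference was -26.7 points, and at Tll2, the gene of a metalloprotease, it was -23.9 points, with an unadjusted p of 0.00629 by limma and an adjusted p of 0.785.

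Members higher in hSTAT5B were found in genes of varied function. At Tnfaip2, a gene induced by tumor necrosis factor, the levels were 19.4 and 14.0% in WT, 29.5 and 60.6% in hSTAT5B, and 15.5 and 21.97% in hSTAT5B N642H. At Kcng4, a potassium channel gene, they were 58.6 and 51.8%, 80.6 and 77.5%, and 68.6 and 73.99%. The hSTAT5B libraries of Kcng4 lay close together and above the other 4. The differences were 25.03 points at the start of Rtkn, 24.3 at the member 30373 bp from Ahdc1, and 21.9 at the member 15120 bp from Cgas, the gene of a DNA sensor.

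The comparison of hSTAT5B N642H with hSTAT5B set the mutant against the unmutated transgene, and it shares libraries with both others. In this comparison 233 members were 5 points or more apart, with 92 higher and 141 lower in the mutant, as were 4.83% of all CGIs tested (2.73% higher, 2.11% lower). The libraries did not overlap at 235 members (46.9%), with 92 higher (18.4%) and 143 lower (28.5%), against 35.4% of all CGIs tested (20.1% higher, 15.3% lower). In the CGIs over 80%, 10.05% were higher and 26.3% lower without overlap. The median difference was -1.37 points, against 0.0854 over all CGIs tested, and it lay between -1.84 and -0.581 when single libraries were left out. No member passed limma, as 0% of all CGIs tested did, with a smallest adjusted p of 0.863. Unadjusted, 21 members (4.19%) had a p under 0.05 by limma, against 5.66% of all CGIs tested. By the quasi-binomial model 129 (25.7%) had one, against 7.59%. After adjustment, that model called 10 members, with 3 higher and 7 lower, against 0.138% of all CGIs tested. Fisher's exact test on pooled reads called 179, against 9.54%. The quasi-binomial count was 4 without WT replicate 1, 4 without WT replicate 2, 1 without hSTAT5B replicate 1, and 0 without either hSTAT5B N642H library.

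Runx1, Hoxa3, Casz1 and Camk2b stood out here too. By the quasi-binomial model, hSTAT5B N642H was lower by 34.2 points at Runx1, with an adjusted p of 0.018. It was lower by 28.7 points at Hoxa3, with an adjusted p of 0.000535, and lower by 32.1 points at Casz1, with an adjusted p of 0.0322. At Camk2b, which the rule took in only through these libraries, as it did Runx1, it was higher by 41.7 points, with an adjusted p of 0.00497. These 4 members and Gm39323 are the 5 called in both comparisons of hSTAT5B N642H, which share the hSTAT5B N642H libraries. They are 41.7% of the 12 called against WT and 50% of the 10 called against hSTAT5B. Gm39323 also passed the rule only through the hSTAT5B N642H libraries, and 51.1% of its 50-base stretches were repeated elsewhere.

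Other members called against hSTAT5B had smaller differences. At Sod3, the gene of extracellular superoxide dismutase, the levels were 66.1 and 64.7% in WT, 57.7 and 51.0% in hSTAT5B, and 73.2 and 76.3% in hSTAT5B N642H, with an adjusted p of 0.0279. At the start of 1700030C10Rik, on chromosome 12, they were 39.3 and 36.4%, 41.6 and 45.8%, and 27.9 and 27.1%, with an adjusted p of 0.0364. Differences were 10.2 points at Gm45844, -12.5 points at the member 61002 bp from Gm15319, and -8.70 points at the member 59136 bp from Pdia4, which had 3435 to 5875 reads per library. Of the 50-base stretches, 65.1% were repeated elsewhere at the Gm15319 member and 96.6% at the Pdia4 member. Uncalled but among the largest was the start of Lhcgr, the luteinizing hormone receptor gene, with 47.5 and 76.5% in WT, 87.4 and 79.4% in hSTAT5B, and 51.4 and 55.8% in hSTAT5B N642H.

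Imprinted genes with a germline methylated region made up the list with the largest share of members. Of 31 such genes, 21 had a CGI tested, and of their 24 CGIs, 18 (75%) were members, 4 lay under 20% and 2 over 80%. Of these 18 members, 16 were even, while 225 of all 501 were. The median difference between the libraries of a genotype was 6.17 points in WT, 5.66 in hSTAT5B and 5.14 in hSTAT5B N642H. Between hSTAT5B N642H and WT, libraries did not overlap at 4 of the 18 with higher and 3 with lower levels (21.7% and 14.4% of all CGIs tested), and the median difference was -0.237 points. No member of the list was called by limma in any comparison.

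The imprinted members at starts with at least 20 CpGs included Grb10, Plagl1 and Zrsr1. Grb10, which encodes an adaptor that restrains growth factor signalling, had 75.02 and 74.3% in WT, 71.1 and 65.8% in hSTAT5B, and 68.7 and 73.5% in hSTAT5B N642H at its start. The start shared by Zrsr1 and Commd1 had 60.7 and 53.5%, 57.8 and 57.7%, and 56.3 and 52.4%. The start of Plagl1, which encodes a zinc finger protein that restrains growth, had 65.9 and 65.6%, 59.8 and 75.2%, and 67.8 and 67.9%. At Zrsr1, WT overlapped both other genotypes, and both hSTAT5B libraries lay above both hSTAT5B N642H libraries. At Plagl1, both hSTAT5B N642H libraries lay above both WT libraries, and the hSTAT5B libraries lay on either side of all others. At Grb10, both WT libraries lay above the other 4 by less than 1 point at the nearest.

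Other imprinted members had differences of varied size. Igf2r, the gene of a receptor that clears insulin-like growth factor, had 54.9 and 57.0% in WT, 58.5 and 60.5% in hSTAT5B, and 49.8 and 50.3% in hSTAT5B N642H at its start. The hSTAT5B N642H libraries lay below the other 4. Peg13, a paternally expressed noncoding RNA, had 54.6 and 53.2%, 53.1 and 55.8%, and 58.8 and 67.9%, with the hSTAT5B N642H libraries above the other 4. At Airn the levels were 51.6 and 53.2%, 52.0 and 73.2%, and 50.9 and 47.8%.

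Wider differences between mice were seen at Nap1l5, Nnat and Nespas. Nap1l5, an imprinted gene of the nucleosome assembly protein family, had 57.4 and 77.2% in WT, 72.4 and 89.9% in hSTAT5B, and 60.3 and 65.7% in hSTAT5B N642H. Nnat, which encodes neuronatin, had 66.5 and 52.5%, 76.7 and 63.9%, and 68.5 and 73.1%. The start at Nespas, the antisense RNA of the Gnas locus, had 74.4 and 46.0%, 76.5 and 61.6%, and 77.1 and 72.5%. WT and hSTAT5B N642H overlapped at Nap1l5 and Nespas, whereas at Nnat both hSTAT5B N642H libraries lay above both WT libraries. The other Gnas members had pooled levels of 65.6%, in an exon, and 28.1%, at a start where the CpGs had an SD of 29.1 points. Of the mouse cluster that corresponds to the Prader-Willi region, Magel2, Mkrn3 and Peg12 had pooled levels of 42.9, 44.8 and 32.9%, and the Plagl1 member in an intron had 66.4%.

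**Figure D5:**
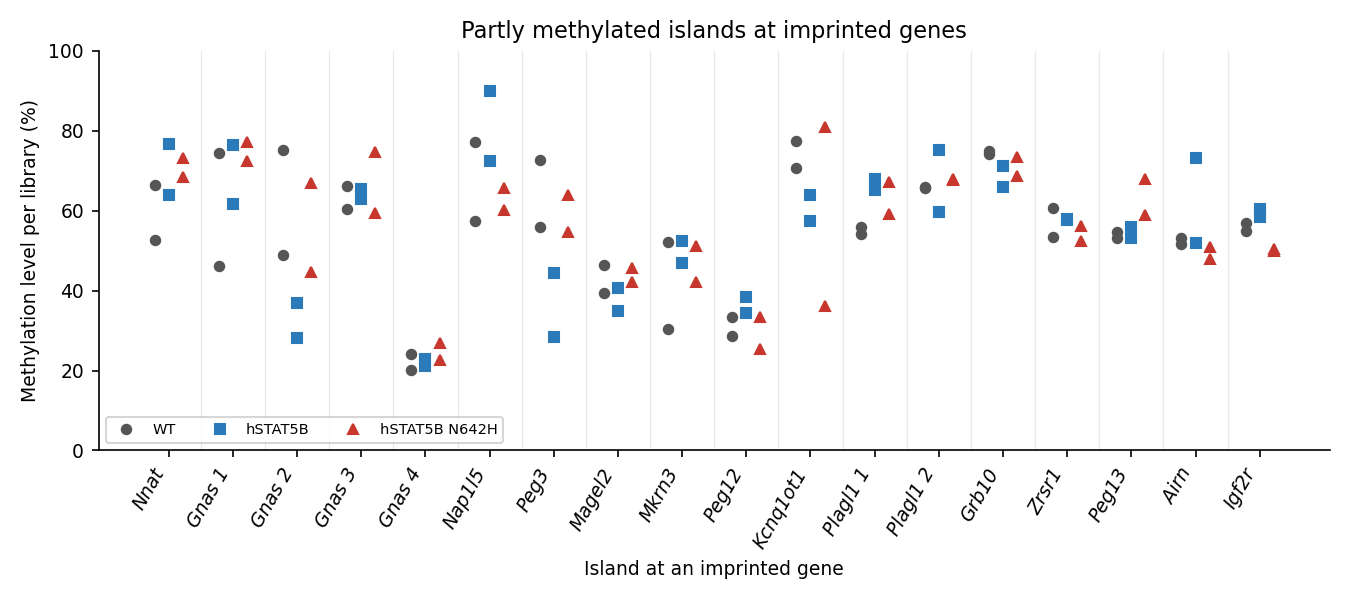
Methylation level of the 18 members at imprinted genes by library (percent), with 1 point per library and colors and shapes for the genotypes. Levels of Zrsr1 lie between 52.4 and 60.7%, whereas those of Kcnq1ot1 reach from 36.1 to 80.9% within hSTAT5B N642H.

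Over all CGIs tested, 4.08% were members, and the shares were 4.58% at developmental transcription factors, 4.17% at CDK inhibitors and tumor suppressors, 3.704% at T cell genes and 15.4% at germline genes. Of 153 CGIs at developmental transcription factors, 145 lay under 20%, 7 were members and 1 lay over 80%. Gbx2, a homeobox gene of brain patterning, had 85.2 and 72.5% in WT, 73.5 and 62.2% in hSTAT5B, and 57.3 and 54.6% in hSTAT5B N642H, with both hSTAT5B N642H libraries below the other 4. The Hoxb3 entry of this list is the Gm11536 member described above. Hoxd3, Gata2, Tbx4, Hoxb1 and Nkx2-5 had pooled levels of 20.1 to 27.1%, and differed by -6.84 to 3.53 points between hSTAT5B N642H and WT. In this list, 0 members were higher and 2 lower in hSTAT5B N642H than in WT without overlap, against 21.7% and 14.4% of all CGIs tested.

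Of 13 CGIs at germline genes, 10 lay over 80%, 1 under 20%, and 2 were members. The members were Dazl, described above, and Smc1b, which encodes a meiotic cohesin subunit, with 23.5 and 27.99% in WT, 23.9 and 23.4% in hSTAT5B, and 23.7 and 22.7% in hSTAT5B N642H. Of 27 CGIs at T cell genes, 23 lay under 20%, 3 over 80%, and Runx1 was the 1 member. Of 24 CGIs at CDK inhibitors and tumor suppressors, 23 lay under 20% and the start of Cdkn1c, an imprinted gene of a CDK inhibitor, was the 1 member, with 30.3 and 48.7%, 48.0 and 39.995%, and 44.3 and 42.0%. The genotypes overlapped there. All 15 CGIs at STAT5 targets and signalling genes lay under 20%, as did all 23 at Polycomb and methylation enzyme genes and all 3 at B cell genes.

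A search for short motifs, on both strands, described the sequences further. TGCCGC, the core motif bound by ZFP57, which keeps methylation at imprinted regions, was in 45.7% of members and in 54.1% of all CGIs tested, and had 1.30 and 1.31 matches per kb. Among the 18 imprinted members, 13 (72.2%) held it, with 3.19 matches per kb. TTCNNNGAA, the palindromic motif bound by STAT5, was in 20 members (3.99%) and in 8.03% of all CGIs tested, which are longer, with 0.0689 and 0.119 matches per kb.

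Repeated sequence was common among members. A stretch of 50 bases that occurs more than once in the genome was found in 197 members (39.3%), compared with 9.11% of all CGIs tested, and at least 50% of the stretches were repeated in 86 members (17.2%), compared with 3.08%. The CGIs over 80% had these shares at 24.5% and 17.3%. Reads of such stretches can be assigned to more than 1 place. Of the 518 CGIs tested on chromosome 12, 52 (10.04%) were members, against 1.63 to 5.79% on the other autosomes. They were concentrated between chr12:17992589-24493726, where 38 of 50 CGIs tested were members, and all 38 held repeated stretches. Their pooled levels ran from 20.7 to 76.1%, with a median of 35.1%, and 26 of them lay outside genes. The near-identical sequences printed above are from this run. A second cluster, at chr4:145000001-150000000, had 16 members among 57 CGIs tested, in a region of zinc finger genes that includes the members of C230088H06Rik.

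The balance of directions differed with repeated sequence. Among the 197 members with a repeated stretch, 63 were at least 5 points higher in hSTAT5B than in WT and 13 were lower. Among the 304 without, 74 were higher and 60 lower. In hSTAT5B N642H against WT, 41 were higher and 23 lower with a repeated stretch, and 75 were higher and 82 lower without. Without WT replicate 1, the counts with a repeated stretch were 59 and 22 for hSTAT5B and 46 and 37 for hSTAT5B N642H, and those without one were 71 and 80, and 76 and 112. The directions over all CGIs tested with a repeated stretch were not counted. Of the 197 members, 38 are those of the chromosome 12 run, so that members with shared sequence count separately. The part of read assignment in these counts was not tested.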

How the data were processed

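DNA methylation was measured by RRBS in 6 libraries, 2 per genotype, grouped by the labels. For alignment to GRCm38 the authors used BSMAP with its RRBS setting, after trimming by Trimmomatic. Each CpG has deposited counts of methylated reads and of all reads, without normalization, and a score that the authors derived from their ratio, which served here as a check. Versions of these tools are not given in the sources used here.

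Own code for the UCSC rule found CGIs in soft-masked GRCm38, and genes came from GENCODE M21. A CpG needed at least 5 reads in each library, and a CGI at least 5 such CpGs. The main test was limma on log2((methylated reads + 1)/(unmethylated reads + 1)), where methylated reads are the mean level times the reads of the CGI, fitted to the 6 libraries together, with Benjamini-Hochberg adjustment over 12287 CGIs at 0.05. A quasi-binomial model, whose dispersions limma moderated over all CGIs tested, and Fisher's exact test on pooled reads, were alternatives. Both took the same methylated reads, from the mean level, and not the counted ones. The code was tested on simulated data. The members and gene lists were chosen with earlier results of these data known, and the imprinted list is of genes known for such levels.

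Named were the 10 highest and 10 lowest differences against WT in hSTAT5B N642H without overlap of libraries, the 5 and 5 of the other comparisons, list genes within 1 kb of a start, the 5 widest library differences, and CGIs next to the limits. Split members and those called by the quasi-binomial model were named after their values were seen. Replicate numbers did not pair libraries, with correlations of deviations between -0.0228 and 0.0327. Tools were limma 3.58.1 in R 4.3.3, and Python 3.11.15 with scipy 1.17.1, numpy 2.4.6, numba 0.67.0, pandas 2.3.3 and matplotlib 3.10.9.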

Additional observations from a re-analysis of the deposited data

How the results depend on the processing

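The depth and 2 mice per genotype limit these results. Counting alone, with CpGs taken as read independently, gives a median library difference of 2.44 to 2.96 points. The counts past 5 points in hSTAT5B N642H against WT, hSTAT5B against WT, and hSTAT5B N642H against hSTAT5B, which were 221, 210 and 233, became 139, 120 and 140 with at least 10 CpGs per CGI, 131, 128 and 133 with members at 30 to 70%, and 100, 86 and 101 at a threshold of 10 points. Without CGIs with a repeated 50-base stretch, which was chosen after seeing the data, 304 members remained, the count in hSTAT5B against WT was 134, and the median difference of hSTAT5B N642H against WT was -0.098 points. Leaving out 1 library at a time moved the counts to 221 to 271, 210 to 269 and 233 to 268, and the medians of hSTAT5B N642H to -0.328 to 1.63 points against WT and to -1.84 to -0.581 against hSTAT5B. With members at 30 to 70%, 265 in number, the latter was -2.05. The median library difference, 4.80 points, was 5.39 with summed reads, 4.11 with at least 10 CpGs, 5.84 with CpGs taken per file, 5.49 without repeated stretches and 5.599 at 30 to 70%. The cause of these changes was not tested.

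limma called 0 members in every comparison, as it did with the replicate number as a block, which gave 0, 0 and 0 calls. The quasi-binomial model called 12, 0 and 10 members and Fisher's exact test on summed reads 178, 125 and 179. Settings of the quasi-binomial model were added after seeing the data. With at least 10 reads per CpG it called 19, 9 and 23, and without repeated stretches 10 and 4 for hSTAT5B N642H against WT and against hSTAT5B. Leaving out 1 library gave 0 to 7, 0 to 7 and 0 to 9 calls. Of the 40 differences named, 38 moved by less than the spread between mice with summed reads. Leaving out a library could not turn them, since they were named for libraries that do not overlap. At 10 reads per CpG, 25 of the 40 had enough CpGs, and 4 of these moved.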
